A study of Mus musculus with 6 samples.

Results

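Respiratory complex I, the NADH:ubiquinone oxidoreductase of the inner mitochondrial membrane, was followed through the genes whose symbols start with Nduf. Members were every probe set whose only gene symbol in the platform annotation starts with these letters, which gave 48 probe sets of 43 genes out of 19938 genes tested. The rule reads gene symbols only, though it was set with earlier results of these data known. The 43 genes comprised 15 subunits of the matrix arm, 18 subunits of the membrane arm, the acyl carrier protein Ndufab1, 7 assembly factors (Ndufaf genes) and 2 genes named for complex I only, Ndufa4 and Ndufa4l2. Another 3 probe sets carried several symbols (Ndufs5 with its pseudogene, and Ndufb4 with Ndufb4b) and were not used. Ndufb1, Ndufb4, Ndufb4b, Ndufb4c and Ndufaf8 were not analysed here.

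The samples were total RNA of the dissected organ of Corti, the strip of the cochlea that holds hair cells and supporting cells, from mice of a C57BL/6J-129/Sv background at postnatal day 15. The knockout animals were Pjvk-/- and the control animals Pjvk+/+, called wild-type here, with 3 arrays for each genotype. Pjvk encodes pejvakin, a gasdermin-family protein that the study connects with peroxisomes and with the response of the ear to sound, and the comparison asks which transcripts differ when it is missing. The labels name no treatment or sound exposure, and they do not say whether the 3 samples of a genotype came from separate animals, so the p-values cover only how far these samples vary, and that variation may be technical.

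Complex I takes electrons from NADH and passes them to ubiquinone while pumping protons. Its L shape has a matrix arm, with the flavin, the iron-sulfur clusters and the quinone site, and a membrane arm that carries the proton channels. The core of the matrix arm is encoded in the nucleus and that of the membrane arm in the mitochondrial genome, with nuclear accessory subunits around both, and assembly factors help to build the complex without staying in it. The organ of Corti sits beside tissues with a heavy energy demand, and its hair cells are rich in mitochondria.

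Signals are given on the log2 scale as deposited, and a difference is the knockout mean minus the wild-type mean with its standard error (SE) from limma. The Pjvk probe set read 4.42, 4.36 and 4.21 in the knockout and 4.75, 5.06 and 4.96 in the wild-type (difference -0.59, SE 0.09, adjusted p = 0.105), a limited check because the position of its probes in the altered gene is not known here. The array medians lay between 6.66 and 6.69. Y-linked genes (Kdm5d, Uty and Eif2s3y, 3 of the 4 listed) were lower in the knockout, with array means from 7.39 to 7.58 against 7.65 to 8.05. The 7 measured hair cell markers had mean signals from 6.34 to 8.01 and the 8 supporting cell markers from 6.07 to 11.04, and the table holds no detection calls that would show which of these lie above background. RNA of a bulk tissue cannot tell fewer cells of a type from less RNA per cell.

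Nduf genes lay slightly lower in the knockout almost throughout, and none of them passed the test over all genes. The knockout mean was below the wild-type mean in 39 of 43 genes (90.7%), against 53.9% of all genes, and the median difference was -0.12, against -0.01 over all genes. At an adjusted p under 0.05 limma called 0 of 43, with a background of 0.0351% of all genes, and the adjusted p-values ran from 0.170 to 0.927. At an unadjusted p under 0.05, 15 of 43 (34.9%) were lower, beside 6.66% of all genes, and 0 of 43 were higher, beside 5.74%. Every knockout array lay below every wild-type array in 26 of 43 genes (60.5%), beside 11.3% of all genes, and the opposite was met in 0 of 43, beside 6.59%. The differences were small: the lowest was -0.31 for Ndufaf1 and the highest 0.10 for Ndufv3. All 43 intervals (95%) stayed above -0.5, with the lowest bound at -0.45 for Ndufaf1.

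Few arrays limit the precision of each difference. The median SE over the 43 genes was 0.06, and 3 arrays against 3 cannot give a two-sided exact permutation p below 0.1. When the prior variance followed the signal and was estimated robustly, 4 of 43 were called by limma, Ndufb6, Ndufaf1, Ndufs4 and Ndufab1 (adjusted p from 0.0155 to 0.0359), among 112 genes in all.

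**Figure D1:**
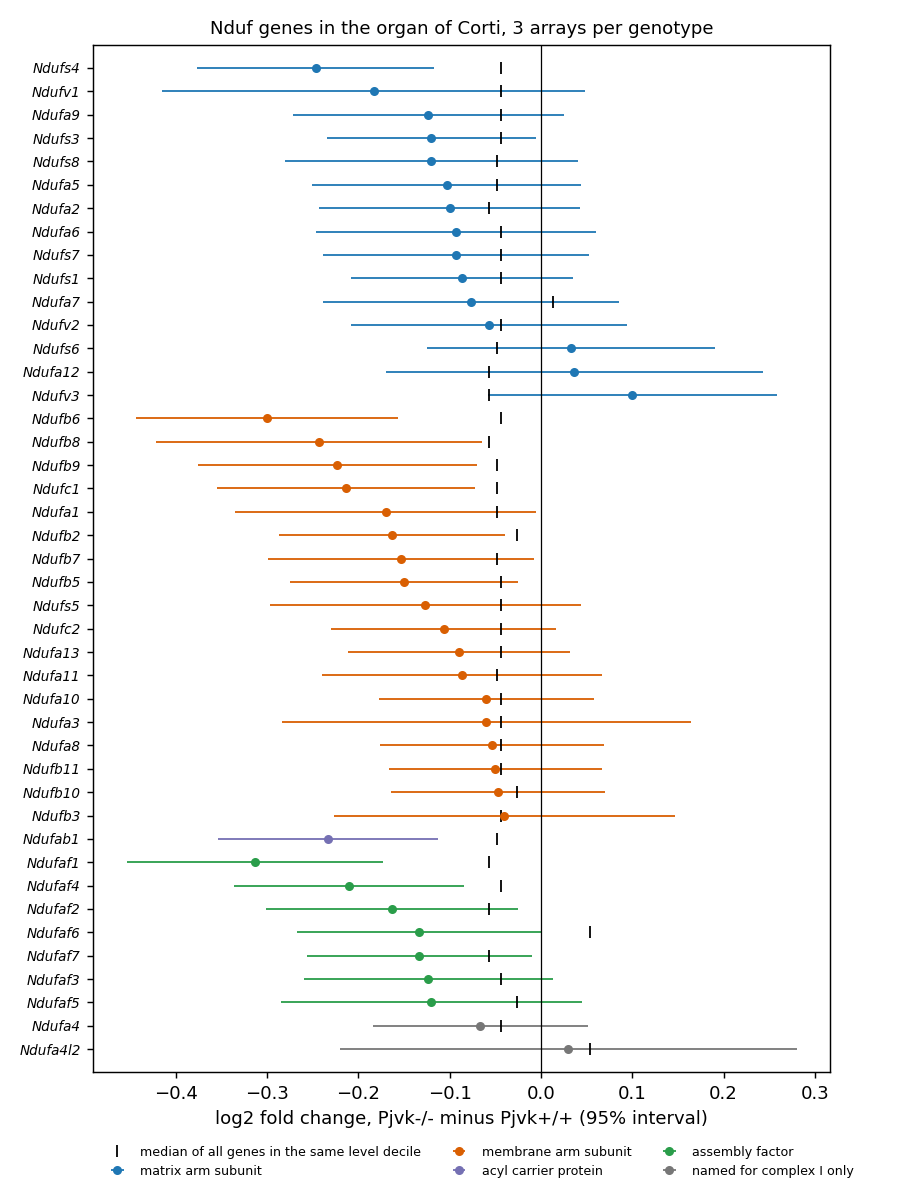
Difference of each of the 43 Nduf genes, knockout minus wild-type on the log2 scale (x axis), with its 95% interval from limma; genes are ordered by class and difference, and black ticks mark the median difference of all genes in the same decile of mean signal. In 39 genes the point lies below 0, with the lowest at -0.31 (Ndufaf1), and the highest point is Ndufv3 at 0.10.

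Nduf genes are bright on this array, and bright genes in general were somewhat lower in the knockout. Of the 43, 17 lay in decile 10 of mean signal and 9 in decile 9, where the median difference of all genes was -0.04 and -0.05, whereas it was 0.07 in decile 3. Weighted by the deciles of the 43 genes, 72.2% of all genes had a lower knockout mean, 9.47% were lower at an unadjusted p under 0.05 and 19% had every knockout array below every wild-type array. These shares stand beside 90.7%, 34.9% and 60.5% for the Nduf genes. Set against the median of its own decile, the difference was lower in 39 of 43 genes, with a median of -0.08. Quantile normalization and cyclic loess left a median of -0.09 and -0.08, with 18 genes without overlap under each, beside 8.17% and 8.80% of all genes.

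**Figure D2:**
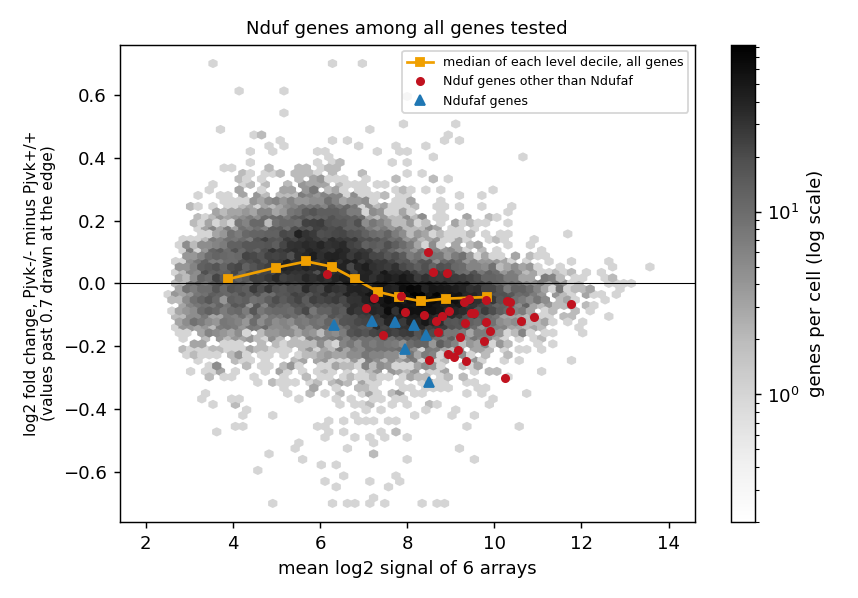
Difference between the genotypes (y axis, log2) against the mean signal of 6 arrays (x axis, log2) for 19938 genes, shown as grey density, with the Ndufaf genes as blue triangles, the other Nduf genes as red points and the median of each signal decile in orange. The orange line passes from 0.07 in decile 3 to -0.04 in decile 10, and 39 of the 43 Nduf genes lie below the median of their own decile.

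The genotypes were also apart in the mean over the family. The mean signal over the 43 genes was 8.84, 8.85 and 8.82 in knockout arrays 1 to 3 and 8.94, 8.94 and 8.99 in wild-type arrays 1 to 3. The genotypes did not overlap, and the gap between them, 0.09, was wider than the range within the knockout (0.03) or the wild-type (0.05). Knockout array 3 held the lowest of the 6 values in 23 genes and wild-type array 3 the highest in 21. Against all genes of the same signal decile the family mean deviated by -0.04, -0.03 and -0.05 in the knockout arrays and by 0.02, 0.03 and 0.07 in the wild-type arrays. Without these outermost arrays, a setting chosen after the values had been seen, 38 of 43 genes were lower, 27 were without overlap (beside 22% of all genes in that 2 against 2 comparison), the median was -0.08 and 6 were lower at an unadjusted p under 0.05, beside 3.91% of all genes. Y-linked signals did not overlap between the genotypes either. Knockout array 3 had the lowest Y-linked mean (7.39), and wild-type array 3, where the Nduf genes were highest, had the lowest of the wild-type (7.65). With the Y-linked mean as a covariate, which is largely confounded with genotype, the median was -0.13 and 42 of 43 genes were lower, with 3 at an unadjusted p under 0.05, beside 3.03% of all genes.

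**Figure D3:**
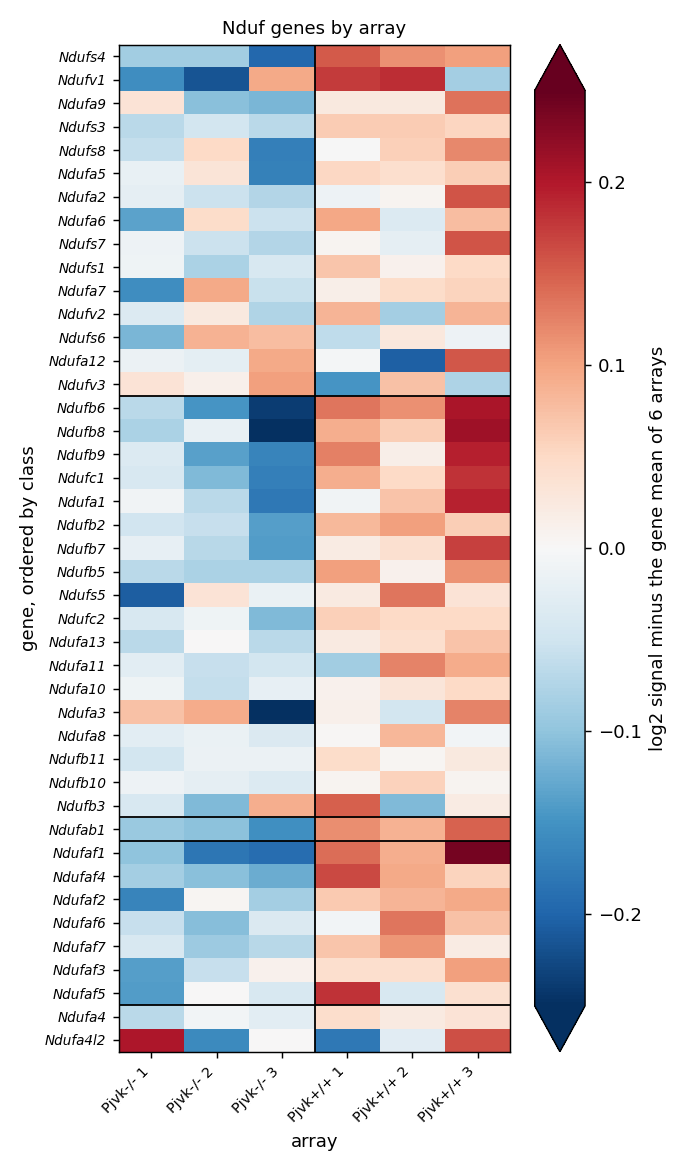
Signal of the 43 Nduf genes (rows, by class) in each of 6 arrays (columns), coloured by the deviation from the mean of the gene over the 6 arrays on the log2 scale, from blue (lower) to red (higher). The knockout columns are mostly blue and the wild-type columns mostly red, and the deepest blue and red are concentrated in array 3 of each genotype, which held the lowest value in 23 genes and the highest in 21.

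The 5 genes with the smallest p-values, Ndufaf1, Ndufb6, Ndufab1, Ndufs4 and Ndufaf4, are shown with the 120 bases before their transcription starts, since the members of the family lay lower together and promoters of such genes are often studied for shared binding motifs. Sequences are from RefSeq on GRCm38.p6, 5′ to 3′ on the strand of the gene, and capitals mark the letters of a motif searched.
Ndufaf1, chr2:119662835-119662954, minus strand: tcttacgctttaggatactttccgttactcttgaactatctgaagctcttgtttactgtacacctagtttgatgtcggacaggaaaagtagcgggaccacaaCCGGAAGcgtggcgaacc
Ndufb6, chr4:40279422-40279541, minus strand: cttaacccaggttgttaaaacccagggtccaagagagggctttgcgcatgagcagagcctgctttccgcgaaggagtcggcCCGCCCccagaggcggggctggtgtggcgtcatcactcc
Ndufab1, chr7:122101849-122101968, minus strand: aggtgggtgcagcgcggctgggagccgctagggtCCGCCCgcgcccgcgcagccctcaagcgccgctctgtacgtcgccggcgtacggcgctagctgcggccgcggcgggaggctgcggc
Ndufs4, chr13:114388095-114388214, minus strand: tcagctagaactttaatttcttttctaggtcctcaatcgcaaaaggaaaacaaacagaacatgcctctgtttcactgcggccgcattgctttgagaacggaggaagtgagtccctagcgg
Ndufaf4, chr4:24897963-24898082, plus strand: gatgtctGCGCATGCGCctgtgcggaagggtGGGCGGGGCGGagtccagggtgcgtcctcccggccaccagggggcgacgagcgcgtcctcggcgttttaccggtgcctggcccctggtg

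Motifs were searched on both strands from 250 bases before to 50 bases after the start. RefSeq promoter entries matched 38 of the 43 genes. The NRF1 motif, written GCGCANGCG, occurred in 9 of 38 (23.7%). The shares beside it were 7.03% of 27025 genes with such an entry and 10.5% of the 15563 tested genes among them. The YY1 motif AAGATGGCG occurred in 5 of 38 (13.2%), beside 1.64% and 2.29%. The ETS motif CCGGAAG was found in 5 of 38 (13.2%), beside 9.93% and 13.6%, the estrogen-related receptor motif CAAGGTCA in 1 of 38 (2.63%), beside 1.76% and 1.41%, and the SP motif GGGCGG in 19 of 38 (50%), beside 38.2% and 53.0%. In the promoters shown, Ndufaf1 has an ETS match 18 bases before the start, Ndufaf4 an NRF1 match 113 bases before it that also reads on the opposite strand 1 base further on, with SP matches 89 and 84 bases before it that share 1 base, and Ndufb6 and Ndufab1 SP matches on the opposite strand 39 and 86 bases before it. Ndufs4 has none in the stretch shown and a YY1 match that begins at base 36 after the start. Also outside the stretches shown, Ndufaf1 has an SP match 223 bases before the start. Ndufb6 has an ETS match 232 bases and an SP match 163 bases before it, both on the opposite strand. These matches describe the letters only.

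The core subunits of the matrix arm were each lower by a small amount. Of the 6 measured, 6 had a lower knockout mean, with a median of -0.11, and 1 was lower at an unadjusted p under 0.05. The shares were 53.9% and 6.66% over all genes, and 76.1% and 9.43% in decile 10 of mean signal, with their median level. Ndufs3, a core subunit beside the quinone site, read 10.55, 10.57 and 10.55 in the knockout and 10.68, 10.68 and 10.67 in the wild-type. Its groups were tight and apart, by 0.12 (SE 0.05, adjusted p = 0.386), and the other Ndufs3 probe set, 10.23, 10.28 and 10.25 against 10.39, 10.39 and 10.37, differed by -0.13 (SE 0.05). Ndufv1, which holds the flavin and the NADH site, read 9.60, 9.54 and 9.85 in the knockout and 9.93, 9.94 and 9.67 in the wild-type. Here array 3 of each genotype stood apart from its fellows and the groups overlapped (-0.18, SE 0.10, adjusted p = 0.478). Without knockout array 3 the difference was -0.28, without knockout array 2 -0.12, without both outermost arrays -0.37, and with the Y-linked covariate -0.087.

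Ndufs1, the largest subunit and a carrier of iron-sulfur clusters, read 10.34, 10.27 and 10.31 in the knockout and 10.42, 10.36 and 10.40 in the wild-type. The groups did not overlap, at a difference of -0.09 (SE 0.05, adjusted p = 0.520). Ndufs8, another iron-sulfur subunit, read 8.60, 8.71 and 8.49 against 8.66, 8.72 and 8.78, and Ndufs7, which carries the last cluster before ubiquinone, 9.51, 9.47 and 9.45 against 9.53, 9.50 and 9.68. Ndufv2, the iron-sulfur partner of Ndufv1, read 10.25, 10.31 and 10.21 against 10.37, 10.20 and 10.37. These 3 overlapped between the genotypes, with differences of -0.12, -0.09 and -0.06, and of -0.035, -0.025 and -0.005 without the outermost arrays.

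Among the accessory subunits of the matrix arm, Ndufs4 had the smallest p. This gene, whose loss in mice gives a model of Leigh syndrome, read 9.27, 9.27 and 9.16 in the knockout and 9.51, 9.47 and 9.46 in the wild-type. All knockout arrays lay below all wild-type arrays, a 1.19-fold lower signal (-0.25, SE 0.06, adjusted p = 0.205). With the Y-linked covariate it was -0.17. Ndufs6 and Ndufa12, which sit in the same region of the arm, and Ndufv3, a small partner of the flavoprotein, were the subunits with higher knockout means. Ndufv3 read 8.52, 8.5 and 8.59 against 8.34, 8.56 and 8.41 (0.10, SE 0.07, adjusted p = 0.563). Ndufs6 read 8.80, 9.0 and 8.99 against 8.85, 8.94 and 8.90 (0.03, SE 0.07). Ndufa12 read 8.57, 8.56 and 8.68 against 8.58, 8.38 and 8.74 (0.04, SE 0.09). All 3 overlapped between the genotypes, and the last 2 changed sign under some alternatives. The remaining matrix arm members, Ndufa2, Ndufa5, Ndufa6, Ndufa7 and Ndufa9, differed by -0.12 to -0.08, and of these Ndufa2 and Ndufa5 did not overlap. Over the whole matrix arm 12 of 15 (80%) were lower, with a median of -0.09 (-0.04 without the outermost arrays). Of the 15, 5 (33.3%) were lower without overlap and 2 (13.3%) lower at an unadjusted p under 0.05. The shares over all genes were 53.9%, 11.3% and 6.66%. In decile 10 of mean signal, which holds the median level of this arm, they were 76.1%, 21.5% and 9.43%.

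The membrane arm was lower without exception among its 18 measured nuclear subunits, with a median of -0.12 (-0.0775 without the outermost arrays). Of these, 13 (72.2%) were without overlap and 8 (44.4%) at an unadjusted p under 0.05. Over all genes, 53.9% were lower, 11.3% without overlap and 6.66% lower at that p. In decile 9 of mean signal, which holds the median level of this arm, the shares were 77.2%, 20.7% and 9.98%. Whether the arms differ was not tested. Ndufb6, an accessory subunit, read 10.19, 10.11 and 10.02 in the knockout and 10.39, 10.37 and 10.46 in the wild-type. It was 1.23-fold lower, the most negative value among the subunits, with the groups apart (-0.30, SE 0.06, adjusted p = 0.181). Ndufc1, another small accessory subunit, read 9.12, 9.05 and 8.99 against 9.25, 9.21 and 9.34 (-0.21, SE 0.06, adjusted p = 0.275). Its other probe set, 8.58, 8.65 and 8.47 against 8.76, 8.72 and 8.80, differed by -0.19 (SE 0.06), so both put the knockout below the wild-type.

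Ndufb9, which contacts an acyl carrier protein in the membrane arm, read 8.90, 8.80 and 8.77 in the knockout and 9.06, 8.95 and 9.13 in the wild-type (-0.22, SE 0.07, adjusted p = 0.287). Ndufb8, a single-pass accessory subunit much used as a blot marker of the complex, read 8.42, 8.48 and 8.23 against 8.59, 8.56 and 8.71 (-0.24, SE 0.08, adjusted p = 0.312). In both genes the groups were apart. Ndufb8 leaned on array 3 of each genotype and was -0.17 without knockout array 3 and -0.13 without both.

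Of the other membrane arm subunits, Ndufa1, Ndufb2, Ndufb5 and Ndufb7 were also lower at an unadjusted p under 0.05, with differences from -0.17 to -0.15. Ndufb2 and Ndufb5 had the tighter groups, 7.31 to 7.40 against 7.51 to 7.55 and 9.82 to 9.83 against 9.91 to 10.01. Ndufa1 and Ndufb11 are X-linked. Ndufa1 met the wild-type at its highest knockout value, 9.2, and Ndufb11 differed by -0.05 in its brighter probe set and by -0.12 in the other. Ndufa3 and Ndufb3 overlapped between the genotypes, with differences of -0.06 (SE 0.10) and -0.04 (SE 0.08). Ndufa8, Ndufa10, Ndufa11, Ndufa13, Ndufb10, Ndufc2 and Ndufs5 differed by -0.13 to -0.05. The dimmer Ndufa11 probe set differed more than the brighter, by -0.22 (SE 0.07) against -0.09 (SE 0.07). RefSeq lists 5 Nduf pseudogenes, among them Ndufa11b, Ndufab1-ps and Ndufs5-ps, and cross-hybridization with them was not assessed.

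Ndufab1, the mitochondrial acyl carrier protein, serves fatty acid synthesis as well as complex I. It read 8.97, 8.96 and 8.91 in the knockout and 9.18, 9.15 and 9.21 in the wild-type. The spread within a genotype was small against the gap (-0.23, SE 0.05, adjusted p = 0.20). The other probe set, 8.82, 8.77 and 8.75 against 8.94, 8.97 and 8.98, differed by -0.18 (SE 0.05). Ndufa4, which is a subunit of complex IV in spite of its name, read 11.70, 11.76 and 11.74 against 11.81, 11.79 and 11.80, apart by 0.07. Ndufa4l2, its hypoxia-induced relative, was dim and overlapped fully, at 6.36, 6.00 and 6.16 against 5.98, 6.13 and 6.32.

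**Figure D4:**
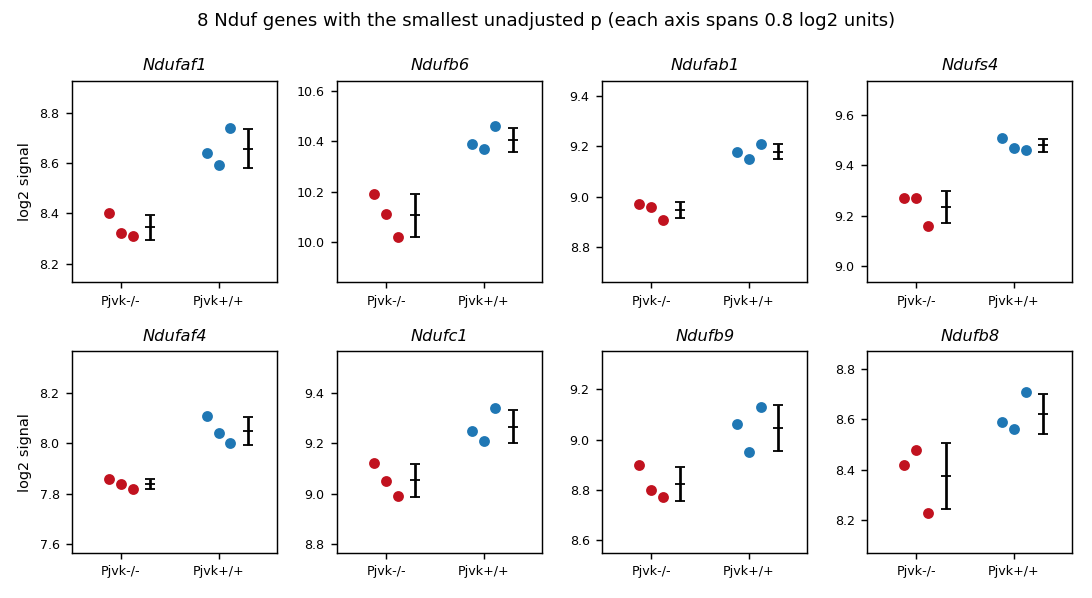
Signal (y axis, log2, each panel spanning 0.8 units) of the 8 Nduf genes with the smallest unadjusted p in the 3 knockout (red) and 3 wild-type (blue) arrays, in replicate order from left to right, with mean and SD in black. In each of the 8 panels every knockout point lies below every wild-type point, and the differences run from -0.31 (Ndufaf1) to -0.21 (Ndufaf4 and Ndufc1).

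All 7 measured Ndufaf assembly factors had lower knockout means, with a median of -0.13. In 6 of them (85.7%) the groups did not overlap, and 4 (57.1%) were lower at an unadjusted p under 0.05. These shares were 11.3% and 6.66% over all genes, and 16.5% and 10.3% in decile 7 of mean signal. Lower knockout means were found in 53.9% of all genes and in 68.6% of decile 7. Ndufaf1, which works in the module that assembles the membrane arm, read 8.4, 8.32 and 8.31 in the knockout and 8.64, 8.59 and 8.74 in the wild-type. This was the most negative of the 43 differences, a 1.24-fold lower signal (-0.31, SE 0.06, adjusted p = 0.170), and its adjusted p was 0.0485 when genes below the median signal were left out. Ndufaf4, which acts early on the quinone module, read 7.86, 7.84 and 7.82 against 8.11, 8.04 and 8.0 (-0.21, SE 0.06, adjusted p = 0.241; -0.12 with the Y-linked covariate). Ndufaf2, a relative of Ndufa12 that holds its place during assembly, read 8.26, 8.43 and 8.34 against 8.49, 8.51 and 8.52 (-0.16, SE 0.06, adjusted p = 0.353). Each of the 3 had its groups apart. Ndufaf7, a methyltransferase, differed by -0.13, Ndufaf6 by -0.13, Ndufaf3, the partner of Ndufaf4, by -0.12, and Ndufaf5, which hydroxylates Ndufs7, by -0.12. Among these 4, the exception with overlapping groups was Ndufaf5. The 7 Ndufaf genes lay in deciles 4 to 8 of mean signal, and each of them was below the median difference of its decile, with a median of -0.11.

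Assembly factors that do not carry the Nduf name were lower as well. Of 11 listed, 10 were measured and 10 had lower knockout means, with a median of -0.14. In 8 of them (80%) the groups did not overlap, 6 (60%) were lower at an unadjusted p under 0.05, and none was called. The first 2 shares were 11.3% and 6.66% over all genes, and 20.9% and 10.8% in decile 8 of mean signal. Lower knockout means were found in 53.9% of all genes and in 79% of decile 8. Nubpl, which delivers iron-sulfur clusters to complex I, read 6.09, 6.14 and 6.24 in the knockout and 6.6, 6.43 and 6.53 in the wild-type (-0.36, SE 0.07, adjusted p = 0.152), a more negative value than that of any of the 43 Nduf genes. Tmem126b, a partner of Ndufaf1, differed by -0.17 (SE 0.06), Tmem70, a membrane factor for the ATP synthase and complex I, by -0.17 (SE 0.05), and Tmem186 by -0.14 (SE 0.06). Ecsit and Acad9, further partners of Ndufaf1, differed by -0.20 (SE 0.08) and -0.12 (SE 0.05).

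The mitochondrially encoded part of the complex could be followed through 1 gene. ND3, a subunit of the membrane arm, read 12.21, 12.25 and 12.25 in the knockout and 12.31, 12.17 and 12.31 in the wild-type. The groups overlapped, at a difference of -0.03 (SE 0.06). Regulators of nuclear mitochondrial genes were lower in 8 of 8, with a median of -0.10. Of these, 4 (50%) were without overlap and 3 (37.5%) at an unadjusted p under 0.05. These 3 were Tfb1m, which differed by -0.18, Tfb2m by -0.16 and Ppargc1a, a coactivator of mitochondrial biogenesis, by -0.14. The fourth by p, Esrra, differed by -0.10, and Nrf1 by -0.02. Genes taken as a gauge of mitochondrial content (16 of 17 measured) were all lower, by a median of -0.07. Of these, 7 (43.8%) were without overlap and 0 at an unadjusted p under 0.05. Set against the median of its own signal decile, the difference was lower in 12 of 16, with a median of -0.025. Vdac1, Vdac2 and Vdac3, the porins of the outer membrane, differed by -0.11, -0.12 and -0.12, Phb2 by -0.11, and Cs, citrate synthase, by -0.03. Glycolytic genes were lower in 12 of 14 (85.7%), with a median of -0.12. Of the 14, 8 (57.1%) were lower without overlap and 4 (28.6%) at an unadjusted p under 0.05 (Pfkp, Ldhb, Pgam1 and Tpi1, from -0.19 to -0.16). None of these genes was called. Over all genes, 53.9% were lower, 11.3% without overlap and 6.66% lower at an unadjusted p under 0.05. In decile 7 of mean signal, with the median level of the regulators, the shares were 68.6%, 16.5% and 10.3%. In decile 10, with that of the content and glycolytic genes, they were 76.1%, 21.5% and 9.43%.

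Other mitochondrial gene families are given side by side, with no test between them. Subunits of complexes II to V were lower in 42 of 47 genes (89.4%), with a median of -0.09. Of the 47, 23 (48.9%) were lower without overlap and 17 (36.2%) lower at an unadjusted p under 0.05. In decile 10 of mean signal, with their median level, the shares of all genes were 76.1%, 21.5% and 9.43%. Mitochondrial ribosomal proteins were lower in 63 of 77 (81.8%), with a median of -0.08. Of the 77, 18 (23.4%) were lower without overlap and 11 (14.3%) lower at an unadjusted p under 0.05. In decile 7, with their median level, the shares were 68.6%, 16.5% and 10.3%. The Nduf genes had 39 of 43 (90.7%), a median of -0.12, 26 (60.5%) without overlap and 15 (34.9%) lower at an unadjusted p under 0.05. Over all genes the shares were 53.9%, 11.3% and 6.66%. Against the medians of their own deciles, the median was -0.06 for complexes II to V, -0.03 for the mitochondrial ribosomal proteins and -0.08 for the Nduf genes.

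Markers of cell types lay in several directions beside these values. Skeletal muscle markers were higher in the knockout in 9 of 9, 5 of them at an unadjusted p under 0.05, with array means from 6.26 to 6.47 against 6.10 to 6.21. Higher at that p were 5.74% of all genes and 13.3% in decile 4 of mean signal, which holds the median level of these markers. The median of all genes in decile 4 was 0.05. The muscle median was 0.19, and 0.14 against the medians of the markers' own deciles. Neuronal markers were lower in 6 of 8, with a median of -0.04 and overlapping array means (10.51 to 10.56 against 10.54 to 10.60). In decile 10, with their median level, 76.1% of all genes were lower and the median was -0.04. Against the medians of the neuronal markers' own deciles, the median was 0.002. Hair cell markers were higher in 4 of 7, with a median of 0.03 and array means of 7.24 to 7.31 against 7.22 to 7.24. Supporting cell markers were higher in 5 of 8, with a median of 0.09 and array means of 8.64 to 8.73 against 8.57 to 8.62. Against the medians of their own deciles, the medians of the 2 lists were 0.03 and 0.13. Of the supporting cell markers, Tectb differed by 0.45 (SE 0.07, adjusted p = 0.092) and Prox1 by -0.21 (SE 0.06). In the list for the stria vascularis, a tissue rich in mitochondria, 3 of 6 were lower, with a median of -0.01, and array means were 8.0 to 8.03 against 8.04 to 8.15. Kcne1 and Kcnq1, which form the potassium channel of its marginal cells, differed by -0.31 (SE 0.10) and -0.25 (SE 0.09), and Slc12a2, Kcnj10, Atp1b2 and Bsnd by -0.06, 0.06, 0.04 and 0.04. Of the 2 red blood cell markers measured, of 5 listed, 1 was lower, with array means of 6.79 to 6.90 against 6.85 to 6.93. The part of any of these, or of the Y-linked difference, in the Nduf values was not tested.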

How the data were processed

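Affymetrix mouse gene ST arrays measured total RNA (100 ng) of 3 Pjvk-/- and 3 Pjvk+/+ organ of Corti samples. The deposited values are on a log2 scale, and Affymetrix Expression Console is the tool named in the submitters' processing notes. How probes were summarized and normalized is not given in the sources used here, and the values were fitted as deposited. Of 35557 probe sets, 21789 had 1 gene symbol, 1621 several, and 12147 were not listed in the dated platform annotation. The probe set with the highest mean stood for each of 19938 genes. Groups were compared with limma 3.58.1 (lmFit, eBayes) in R 4.3.3 and Benjamini-Hochberg adjustment over all genes, called at an adjusted p under 0.05. The step was tested on simulated data. Array correlations were 0.9913 or higher, and no pair was identical. Arrays, 3 per genotype, limit the precision.

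The members, gene lists, classes and alternatives were chosen with earlier results of these data known. Signals of each array were printed for the core subunits, the 8 smallest unadjusted p-values, the 3 highest differences, the 3 Ndufaf genes with the smallest p, Ndufab1, Ndufa4 and Ndufa4l2. For other lists up to 4 genes with the smallest p were named, and Ecsit, Acad9, Nrf1, Cs, Atp1b2 and Bsnd were added after their values were seen. Motif searches used RefSeq promoters on GRCm38.p6.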

Additional observations from a re-analysis of the deposited data

How the results depend on the processing

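The family kept its direction in every setting tried: the 18 alternatives (6 of them leaving out 1 array each, and 1 chosen after the data had been seen) gave a lower knockout mean in 37 to 44 members and a median between -0.13 and -0.08, where 44 is out of 48 probe sets tested one by one and 37 is out of 40 genes at or above the median signal. All 288 alternative values of the 16 lower Nduf genes given with their array values stayed below 0. That count is a weak check, since part of these genes were picked for their small p in these same data. The gene filters, single probe sets, intensity trend and replicate block also leave the difference of such a gene unchanged, so its sign could not turn there. The median was -0.0856 with quantile normalization, -0.0795 with cyclic loess, -0.132 to -0.095 with 1 array left out and -0.075 without knockout replicate 3 and wild-type replicate 3 together. Calls numbered 1 among genes at or above the median signal (45 of 9969 genes in all) and 4 with an intensity trend and robust priors (112 of 19938). Genes lower at an unadjusted p under 0.05 numbered 3 with the Y-linked covariate and 6 without both outermost arrays, beside 3.03% and 3.91% of all genes, against 15 beside 6.66% as reported. Ndufa4l2 turned to -0.0118 with cyclic loess, -0.0024 with array weights and -0.168 with the Y-linked covariate, and ran from -0.0633 to 0.118 with 1 array left out. Ndufa12 was -0.129 and Ndufs6 -0.0596 with that covariate, and they ran from -0.0567 to 0.123 and from -0.0017 to 0.0983 with 1 array left out. The cause was not tested. With the replicate number as a block, 11 members were lower at an unadjusted p under 0.05 (5.84% of all genes), the median was -0.12 and 1 gene was called over all genes, against 7. Same-numbered arrays correlated at 0.0759, 0.0186 and -0.0094 in their deviations from the group means, so the numbers were not taken to pair the samples.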
